A study of Mus musculus with 6 samples.

Results

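The phase II conjugation enzyme genes described here belong to 3 enzyme families: the UDP-glucuronosyltransferases (UGT), the cytosolic sulfotransferases (SULT) and the glutathione S-transferases (GST). Members were taken by symbol, as genes with a probe set of their own on the array whose symbol starts with Ugt1a, Ugt2a, Ugt2b, Ugt3a, Sult, Gsta, Gstm, Gstp, Gstt, Gstk, Gsto, Gstz or Mgst. The rule itself uses symbols only, though the families were picked with earlier results of these data known. The rule found 48 of the 19938 genes measured: 10 UGT, 16 SULT and 22 GST genes. The UGT1A genes contributed 0 members, because their probe set carried several symbols. It is described together with 11 further probe sets that several family genes share.

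Conjugation makes a drug, hormone, bile pigment or reactive metabolite more soluble by joining it to a polar group, and the liver is a main site of this chemistry. UGT enzymes sit in the endoplasmic reticulum and transfer a sugar, mostly glucuronic acid from UDP-glucuronic acid. SULT enzymes are cytosolic and transfer sulfate from the donor PAPS, while GST enzymes join glutathione to electrophiles. The products leave the hepatocyte through transporters of the canalicular and basolateral membranes.

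The cells came from perfused livers of 3 weaned CyclinB1-GFP transgenic mice aged 3.5 weeks, in which the reporter separates replicating from quiescent cells. GFP-positive cells (replicating) and GFP-negative cells (quiescent) were obtained by flow sorting, with 3 arrays per fraction. No other allele, drug or surgery is named for either fraction, and the promoter driving the transgene is not given in the sources used here. Each array received whole-transcript cDNA amplified from a small amount of total RNA, and its values are log2 of the deposited intensity. Arrays are called by their fraction and replicate number (1, 2 or 3). The labels call the replicates biological without saying that equal numbers mark the same mouse.

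All 15 proliferation genes checked were higher in the GFP-positive arrays, with a median difference of 3.79. All 9 hepatocyte markers measured lay above the median intensity of every array in both fractions, and their summed intensity was 65401 to 68944 in GFP-negative and 61020 to 63316 in GFP-positive arrays. Median log2 intensity over all probe sets ran from 4.6 to 4.74 across the 6 arrays, and array number limits the precision. Number 2 stood apart in both fractions: Xist, the RNA of the inactive X chromosome, was at 9.03 and 9.80 there and between 3.73 and 4.04 on the other arrays. The Y-linked Eif2s3y was at 1.98 and 2.24 in number 2 and between 6.78 and 7.31 elsewhere. Sex and the rest of what distinguishes number 2 cannot be told apart. In sorted bulk cells, fewer cells of a type and less RNA per cell cannot be told apart either.

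Most conjugation genes were slightly lower in the GFP-positive arrays, and 0 of the 48 passed the test in either direction. The test was limma, with p-values adjusted by Benjamini-Hochberg across the 19938 genes and called under 0.05. By that rule 0.115% of all genes were lower and 1.55% higher, and the smallest adjusted p of a member was 0.11. At an unadjusted p under 0.05, limma gave 8 members lower and 1 higher, beside 3.79% and 5.01% of all genes. Of the 48 members, 41 (85.4%) had a difference below 0, beside 55.7% of all genes, and 57.6% of the genes above the median level. The members' median difference was -0.19, and that of all genes was -0.03. Below 0 were also 8 of the 9 hepatocyte markers (median -0.11) and 13 of 16 conjugate transporters (median -0.19). Of 16 periportal hepatocyte genes, 7 lay below 0 (median 0.08). Whether the shift is particular to the conjugation genes was not tested. In 8 members (16.7%) all GFP-positive arrays lay below all GFP-negative arrays, which occurred in 6.98% of all genes. These were Ugt3a1, Ugt3a2, Ugt2b1, Ugt2a3, Gstm6, Gstm5, Gstm2 and Mgst1. The opposite separation occurred in 0 members, beside 1359 of the 19938 genes.

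**Figure D1:**
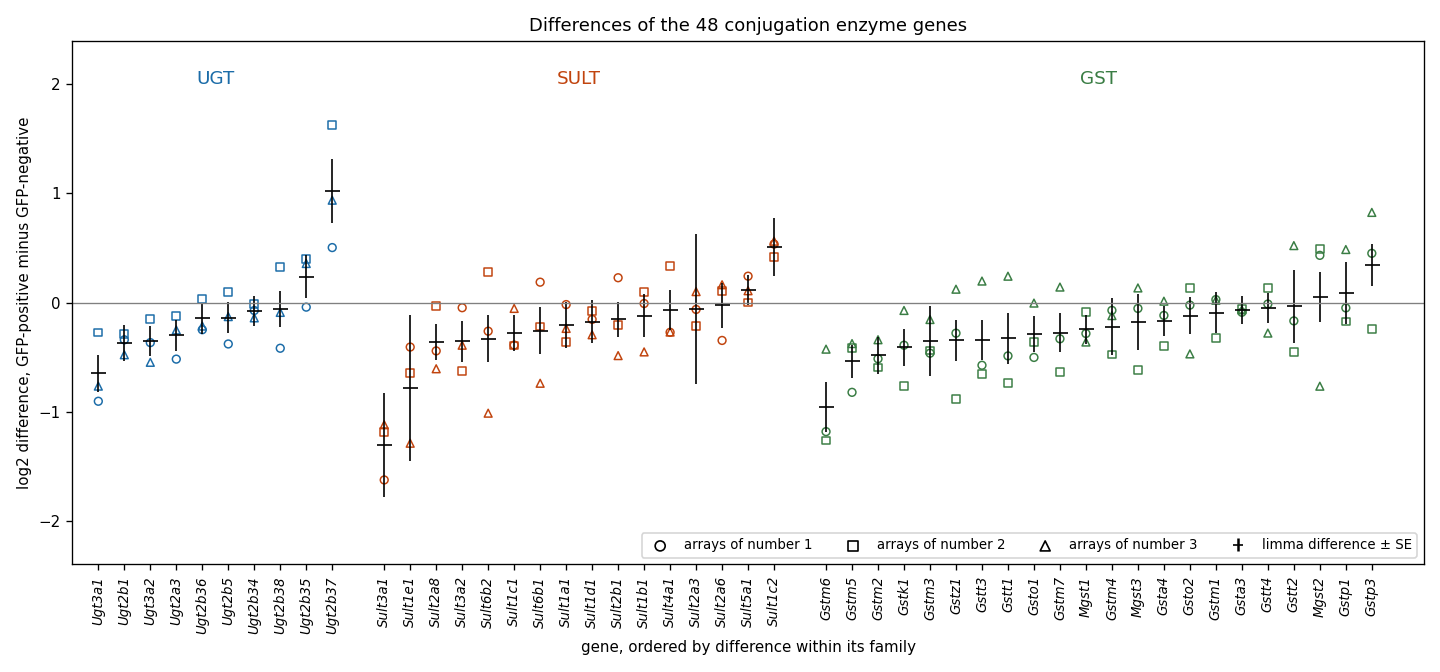
Log2 difference between GFP-positive and GFP-negative arrays for each of the 48 genes, ordered within its family. Dashes with bars are the limma difference and its SE, and open symbols are the differences within replicate numbers 1, 2 and 3. The horizontal line marks 0, and 41 of the 48 genes lie below it, with Sult3a1 lowest and Ugt2b37 highest.

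The medians of all 3 families lay below 0. The UGT median was -0.14 (range -0.65 to 1.02, 8 of 10 genes below 0), the SULT median -0.19 (-1.31 to 0.51, 14 of 16) and the GST median -0.23 (-0.96 to 0.35, 19 of 22). Within replicate numbers 1, 2 and 3 the UGT medians were -0.35, 0.01 and -0.18, so the family lay at about 0 in number 2. The SULT medians were -0.11, -0.14 and -0.34, and the GST medians were -0.22, -0.43 and -0.04. Over all genes the medians were -0.01, 0.02 and -0.06, so in number 3 the GST median was not below that of all genes. There 12 of the 22 GST genes were lower. Among genes above the median level, the medians in numbers 1, 2 and 3 were -0.02, -0.11 and 0.05 over all genes. Those of GST genes at that level were -0.28, -0.46 and 0.01, and those of SULT genes -0.09, -0.06 and -0.37. All UGT genes were at that level. In number 2 the UGT and SULT medians were therefore not below that of all such genes. The lowest family was UGT in number 1, GST in number 2 and SULT in number 3, and the difference between families was not tested. In all, 21 members (43.8%) were lower in the GFP-positive array of every number, as were 15.3% of all genes. Higher in every number were 3 members, beside 2565 of the 19938 genes. By signal, 10 of 10 UGT, 19 of 22 GST and 6 of 16 SULT genes lay above the median gene, and 8 members (6 SULT, 2 GST) exceeded the array median on no array.

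Promoters of Ugt3a1 and Gstm5 are printed first, because both genes lay lower on every GFP-positive array and belong to the UGT3A pair and the mu class of GST, in which every gene had a difference below 0. RefSeq promoter entries (GRCm38.p6), running from 250 bases before to 50 after the annotated start, were found for 44 of the 48 members, with 56 promoters in all. Capitals in the Gstm5 sequence (chr3:107895604-107895903, plus strand) mark matches to 3 motifs. The antioxidant response element core TGACNNNGC lies 42 bases before the start. The reverse complement of the xenobiotic response core GCGTG lies 171 bases before the start, and TATAAA lies 41 bases after it. A further match to the reverse complement of GCGTG, 38 bases before the start, lies inside the capitals of the antioxidant element. In the Ugt3a1 sequence (chr15:9279579-9279878, plus strand) capitals mark TATAAA 8 bases before the start.
Gstm5: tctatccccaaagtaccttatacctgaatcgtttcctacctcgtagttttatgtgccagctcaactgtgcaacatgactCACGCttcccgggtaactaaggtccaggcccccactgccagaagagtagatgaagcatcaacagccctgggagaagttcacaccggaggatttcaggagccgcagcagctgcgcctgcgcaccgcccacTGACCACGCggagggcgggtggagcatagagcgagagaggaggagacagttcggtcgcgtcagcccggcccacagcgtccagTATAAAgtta
Ugt3a1: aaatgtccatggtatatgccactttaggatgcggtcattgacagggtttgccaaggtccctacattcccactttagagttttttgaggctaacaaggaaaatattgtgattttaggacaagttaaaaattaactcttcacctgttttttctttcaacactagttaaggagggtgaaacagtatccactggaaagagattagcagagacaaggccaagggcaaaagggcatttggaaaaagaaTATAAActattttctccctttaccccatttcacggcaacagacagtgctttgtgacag
TATAAA was searched on the gene's strand only, and the other motifs on both strands. A letter match describes the sequence and is neither a bound site nor a cause.

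The antioxidant element core TGACNNNGC, which NRF2 can bind, occurred in 4 of the 56 member promoters (7.14%), those of Gsta3, Gstm5, Gstm7 and Mgst1, beside 12.4% of all 32851 promoters in the table. GCGTG, the core bound by the aryl hydrocarbon receptor, occurred in 17.9% of member promoters and 32.4% of all. TTCNNNGAA, the STAT5 form, occurred in 7.14% and 8.30%, and TATAAA in 16.1% and 8.32%. TTGCNNAA, a CEBP form, was found in 21.4% of member promoters and 10.8% of all. GTTAATNAT, the left part of the HNF1 form, was found in 3 member promoters (5.36%) beside 0.801% of all promoters. All 3 belong to SULT genes, and they are shown with 20 bases on each side, the match in capitals. Sult2a3 and Sult2a6 are neighbouring paralogs with similar sequence there. Of the members, 11 had more than 1 promoter, and the same GCGTG of Gstm1 is counted in both of its overlapping promoters. The member percentages therefore do not count independent sequences. Sult1d1 lies at chr5:87569057-87569105 with its match 79 bases before the start, Sult2a3 at chr7:14123071-14123119 (51 before) and Sult2a6 at chr7:14254913-14254961 (71 before), all on the minus strand.
Sult1d1: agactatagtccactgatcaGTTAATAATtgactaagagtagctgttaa
Sult2a3: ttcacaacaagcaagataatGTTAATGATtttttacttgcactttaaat
Sult2a6: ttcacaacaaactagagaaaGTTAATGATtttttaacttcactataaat
None of the 3 separated the fractions: their differences were -0.18 ± 0.20 (SE), -0.06 ± 0.69 and -0.03 in that order, and limma called none of them.

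Among the UGT genes, the UGT3A pair was lower on every GFP-positive array. UGT3A enzymes transfer sugars other than glucuronic acid, and the 2 genes are neighbours. Ugt3a1 read 8.30, 7.95 and 8.45 on GFP-negative arrays 1, 2 and 3 and 7.39, 7.68 and 7.68 on the GFP-positive arrays. The groups did not overlap, and the gap was widest in number 1. Group means were 8.23 ± 0.25 and 7.58 ± 0.17 (SD, n = 3), a difference of -0.65 ± 0.17 (SE) or 1.57-fold lower, with a limma adjusted p of 0.14. Ugt3a2 read 10.95, 10.85 and 10.98 in GFP-negative and 10.58, 10.70 and 10.43 in GFP-positive arrays. Its groups did not overlap either, with a difference of -0.35 ± 0.14 (SE) and a limma adjusted p of 0.45. The promoter of Ugt3a1 printed above held only a TATAAA match among the 6 motifs searched.

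UGT2 enzymes glucuronidate steroids, bile acids and many drugs, and their 8 members lie in a single gene cluster together with Sult1b1, Sult1d1 and Sult1e1. Ugt2b1 read 10.21, 10.04 and 10.52 in GFP-negative and 9.87, 9.76 and 10.04 in GFP-positive arrays. The groups were adjacent, since the highest GFP-positive array nearly reached the lowest GFP-negative one. The difference was -0.37 ± 0.16 (SE), 1.29-fold lower, with a limma adjusted p of 0.56. Ugt2a3 read 10.02, 9.80 and 10.00 against 9.50, 9.67 and 9.75, again without overlap, a difference of -0.30 ± 0.14 (SE) and a limma adjusted p of 0.60. Ugt2b36 (10.77, 10.78 and 10.74 against 10.52, 10.82 and 10.52) and Ugt2b5 (10.70, 10.51 and 10.52 against 10.31, 10.61 and 10.39) overlapped, and both had a difference of -0.14 ± 0.14 (SE). In both genes number 2 was the number in which the GFP-positive array was the higher one. Ugt2b34, Ugt2b38 and Ugt2b35 differed by -0.07, -0.06 and 0.24.

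Ugt2b37 ran the other way. It read 5.74, 5.53 and 6.34 in GFP-negative and 6.24, 7.15 and 7.28 in GFP-positive arrays. GFP-positive array 1 lay just under the highest GFP-negative array, and within each number the GFP-positive array was higher. The means were 5.87 ± 0.42 and 6.89 ± 0.57 (SD, n = 3), a 2.03-fold difference of 1.02 ± 0.29 (SE), with a limma adjusted p of 0.20. Without GFP-positive replicate 1 the difference was 1.35 and the limma adjusted p 0.033, and over all alternatives the adjusted p ran from 0.033 to 0.55. Probes of near-identical UGT2B paralogs can share signal, so a value for a single UGT2B gene is uncertain.

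**Figure D2:**
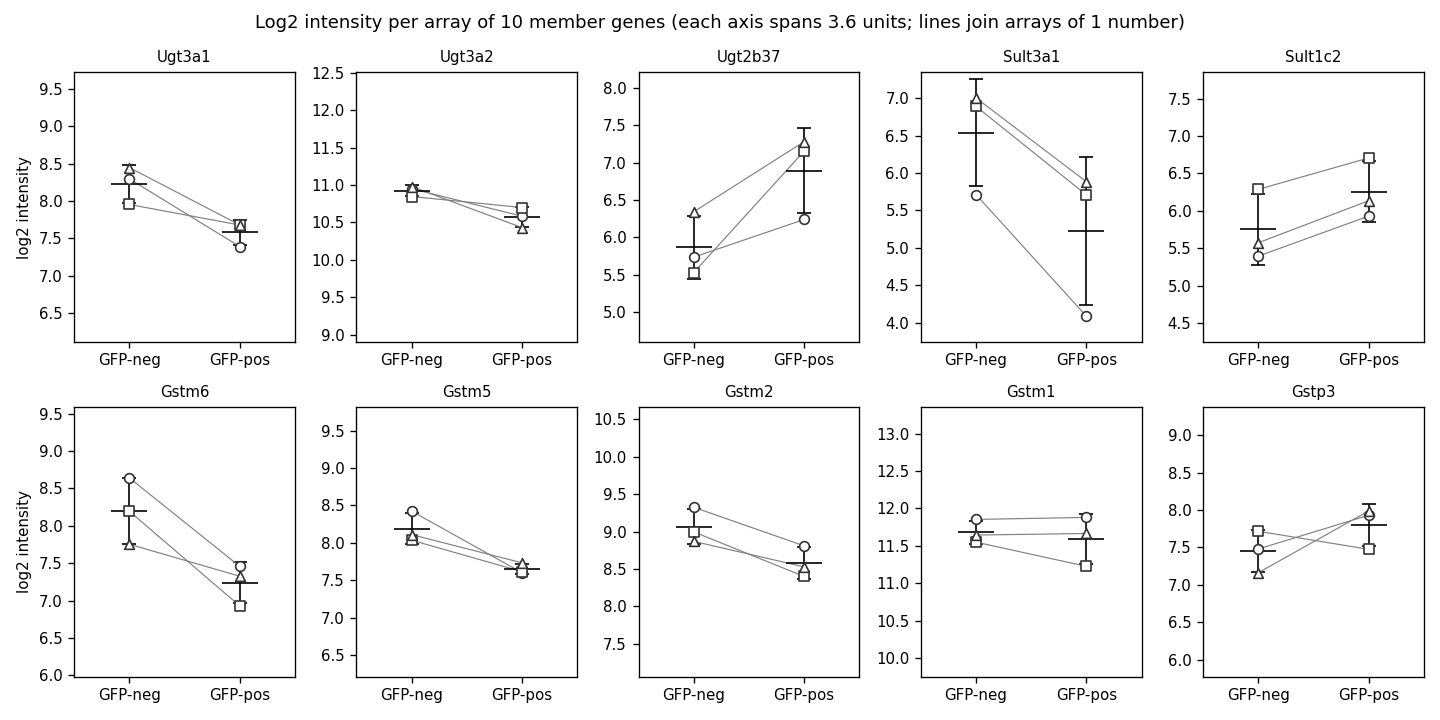
Log2 intensity of 10 members on each array, with GFP-negative arrays on the left and GFP-positive arrays on the right of each panel and lines joining arrays of equal number (circle 1, square 2, triangle 3). Dashes with bars are the mean and SD of 3 arrays. Each vertical axis spans 3.6 log2 units. Ugt3a1, Ugt3a2, Gstm6, Gstm5 and Gstm2 separate without overlap, while the 3 lines of Sult3a1 run down in parallel from different starting levels.

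Among the sulfotransferases, Sult3a1, an amine sulfotransferase, had the difference of greatest size among the 48 members in the fit of all arrays. It read 5.71, 6.89 and 7.0 in GFP-negative and 4.09, 5.71 and 5.88 in GFP-positive arrays. Array 1 was the lowest of each fraction, GFP-positive array 1 lay below the array median, and the fractions overlapped. Group means were 6.54 ± 0.72 and 5.23 ± 0.99 (SD, n = 3), a difference of -1.31 ± 0.48 (SE), 2.48-fold lower, with a limma adjusted p of 0.40. Within numbers 1, 2 and 3 the differences were -1.63, -1.18 and -1.12. With the replicate number as a block the SE was 0.17 and limma called Sult3a1 lower with an adjusted p of 0.0034. It was the only member called in that fit, which called 0.14% of all genes lower. Its adjusted p ran from 0.0034 to 0.68 over the alternatives, the highest without GFP-positive replicate 1. Without that array the difference was -0.74, and without GFP-negative replicate 3 it was -1.08, in both cases smaller in size than those of Ugt2b37 and Gstm6. Leaving out 1 array also unbalances the numbers between fractions. The neighbouring Sult3a2 differed by -0.36.

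Sult1e1, the estrogen sulfotransferase, read 2.28, 3.48 and 5.15 in GFP-negative and 1.87, 2.84 and 3.87 in GFP-positive arrays. The GFP-positive array was lower in each number, but the numbers spread further than the fractions, and only GFP-negative array 3 lay above its array median. The difference was -0.78 ± 0.67 (SE), with a limma adjusted p of 0.86. Within numbers 1, 2 and 3 the differences were -0.41, -0.65 and -1.29. With the replicate number as a block the SE was 0.20 and the limma adjusted p 0.13. The fitted difference was -0.02 without GFP-negative replicate 3 and -1.46 without GFP-negative replicate 1. Fits without 1 array also leave the numbers unbalanced between fractions. Sult1c2, a phenol sulfotransferase, was higher in each number: 5.39, 6.29 and 5.57 in GFP-negative and 5.93, 6.71 and 6.13 in GFP-positive arrays. Number 2 was highest in both fractions, the groups overlapped, and the difference of 0.51 ± 0.26 (SE) had a limma adjusted p of 0.66.

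The 3 SULT genes of highest signal did not separate well. Sult1d1, which sulfates catecholamines, read 10.85, 11.37 and 11.16 against 10.69, 11.29 and 10.86. Sult2a8, of the hydroxysteroid and bile acid subfamily, read 10.17, 10.21 and 10.26 against 9.73, 10.18 and 9.65, a difference of -0.36 ± 0.16 (SE) with a limma adjusted p of 0.59. Sult1a1, the main phenol sulfotransferase, read 9.12, 9.73 and 9.09 against 9.10, 9.37 and 8.85, a difference of -0.21 ± 0.21 (SE), which was 0.0032 without GFP-negative replicate 2. In each of these genes the GFP-positive array was lower within every number, while number 2 lay at or near the top of both fractions. Of the other SULT genes, Sult6b2, Sult1c1, Sult6b1, Sult2b1, Sult1b1 and Sult4a1 differed by -0.33, -0.28, -0.26, -0.15, -0.12 and -0.07, and Sult5a1 by 0.12. Sult2a3 and Sult2a6 were near 0, as given beside their sequences.

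The largest GST group was the mu class, whose 7 genes lie in a single cluster in the order Gstm5, Gstm7, Gstm6, Gstm3, Gstm2, Gstm1 and Gstm4. All 7 mu genes had a difference below 0, with a median of -0.35, and 5 of them were lower in every number. Under quantile normalization and under centring the 7 were below 0 as well, and without GFP-positive replicate 2 there were 6, since Gstm1 was then at 0.090. The mu median was -0.15 without GFP-positive replicate 2, -0.19 without GFP-negative replicate 1 and -0.52 without GFP-negative replicate 2 or GFP-positive replicate 1. Gstm6 read 8.64, 8.19 and 7.75 in GFP-negative and 7.46, 6.93 and 7.33 in GFP-positive arrays. The groups did not overlap, and GFP-negative array 3 came closest to the GFP-positive arrays. The means were 8.20 ± 0.44 and 7.24 ± 0.27 (SD, n = 3), a difference of -0.96 ± 0.23 (SE), 1.94-fold lower, with a limma adjusted p of 0.11. Without GFP-negative replicate 3 the difference was -1.18 and the limma adjusted p 0.046, and the adjusted p ran from 0.046 to 0.36 over the alternatives.

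Gstm5 read 8.43, 8.04 and 8.11 in GFP-negative and 7.60, 7.62 and 7.73 in GFP-positive arrays, which lay close together and below every GFP-negative array. Its difference was -0.54 ± 0.15 (SE), 1.45-fold lower, with a limma adjusted p of 0.18. Gstm2 read 9.32, 8.99 and 8.87 against 8.81, 8.40 and 8.53, also without overlap, a difference of -0.48 ± 0.17 (SE) and a limma adjusted p of 0.38. Gstm1, the mu gene of highest signal, read 11.85, 11.55 and 11.64 against 11.88, 11.22 and 11.66, and only number 2 was clearly lower in GFP-positive cells. Its difference was -0.09 ± 0.19 (SE). Gstm3 read 10.62, 9.54 and 9.72 against 10.16, 9.10 and 9.56, with number 1 highest in both fractions, and its second probe set gave -0.24 where the first gave -0.35. Gstm7 and Gstm4 differed by -0.28 and -0.22. Mu genes are close paralogs, so signal could pass between their probe sets, which was not tested.

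Outside the mu class, Gstk1, the mitochondrial and peroxisomal GST, read 9.95, 10.07 and 9.54 in GFP-negative and 9.56, 9.31 and 9.47 in GFP-positive arrays. GFP-negative array 3 was within the range of the GFP-positive arrays, and the difference was -0.41 ± 0.17 (SE) with a limma adjusted p of 0.51. Mgst1, a microsomal GST, read 12.19, 12.05 and 12.23 against 11.90, 11.96 and 11.87, a small gap without overlap, with a difference of -0.25 ± 0.13 (SE) and a limma adjusted p of 0.67. Gsta3, an alpha GST of the hepatocyte, read 12.41, 12.35 and 12.27 against 12.32, 12.30 and 12.21, lower in every number but overlapping between fractions, a difference of -0.07 ± 0.13 (SE). Gstz1, an enzyme of tyrosine breakdown, differed by -0.35. The 4 theta genes were all below 0 (Gstt3 -0.34, Gstt1 -0.33, Gstt4 -0.05 and Gstt2 -0.03), and so were Gsto1 and Gsto2 (-0.29 and -0.12), Gsta4 (-0.17) and Mgst3 (-0.18). Mgst2 was at 0.05.

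Both pi class genes lay above 0 in the fit of all arrays. Gstp1 read 11.56, 10.75 and 10.79 in GFP-negative and 11.51, 10.57 and 11.27 in GFP-positive arrays, so number 3 alone was higher in GFP-positive cells. Its difference was 0.09 ± 0.28 (SE). Gstp3 read 7.48, 7.72 and 7.16 against 7.93, 7.48 and 7.99, higher in numbers 1 and 3 and lower in number 2, a difference of 0.35 ± 0.19 (SE) with a limma adjusted p of 0.70. When each array was left out in turn, 1 of the 2 pi genes lay below 0 in 3 of the 6 fits.

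Probe sets shared by several family genes were fitted with all 35512 probe sets and are named by class only. The 4 alpha GST probe sets all had a difference above 0, whereas Gsta3 and Gsta4, the single alpha members, lay below 0. The one with the largest difference (probe set 10587323) read 8.48, 8.46 and 8.37 in GFP-negative and 9.09, 9.14 and 8.69 in GFP-positive arrays, without overlap. Its difference was 0.54 ± 0.16 (SE), 1.45-fold higher, with a limma adjusted p of 0.38. The other 3 differed by 0.51 ± 0.17, 0.41 ± 0.17 and 0.38 ± 0.17 (SE), and 3 of the 4 separated the fractions, as 7.46% of all probe sets did in that direction. These 4 probe sets share genes, so they are not 4 separate observations, and none passed limma's adjusted threshold under any alternative.

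The 2 UGT3A probe sets had the direction of the single UGT3A genes. Both read the same genes as those members on the same arrays, so they are not separate observations. The first (probe set 10427624) read 9.61, 9.63 and 9.34 in GFP-negative and 9.01, 8.97 and 9.05 in GFP-positive arrays, a difference of -0.52 ± 0.14 (SE), 1.43-fold lower, with a limma adjusted p of 0.28. The second differed by -0.50 ± 0.14 (SE). Neither overlapped between fractions, beside 5.72% of all probe sets in that direction. The UGT1A probe set, for the family that conjugates bilirubin, read 9.33, 9.54 and 9.13 against 9.15, 9.05 and 9.10, lower in every number by a difference of -0.23 ± 0.15 (SE), with a limma adjusted p of 0.82. The pi probe sets differed by 0.04 and 0.05. The UGT2A probe set lay between 2.07 and 2.28 on all arrays, under the array medians.

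**Figure D3:**
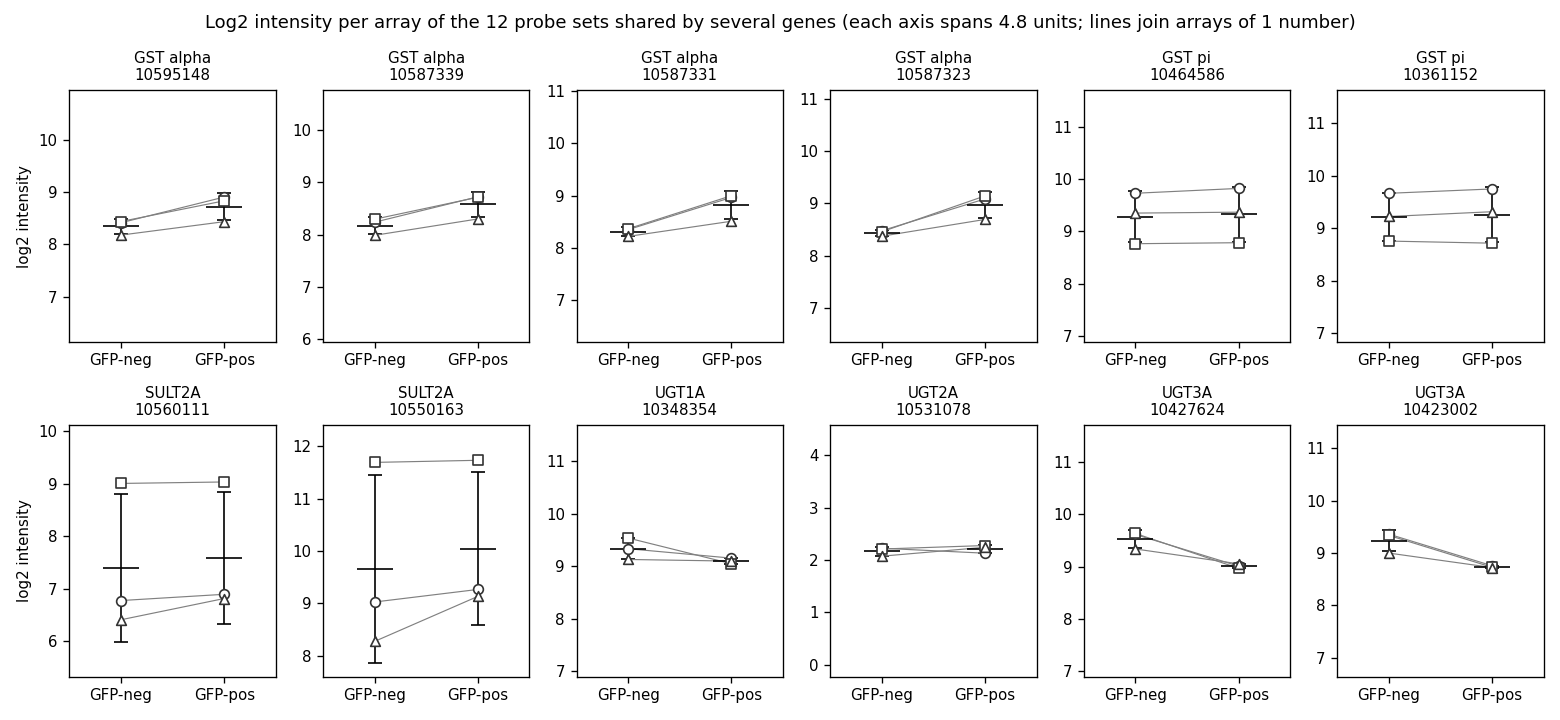
Log2 intensity per array of the 12 probe sets shared by several genes of a class, GFP-negative on the left and GFP-positive on the right of each panel, with lines joining arrays of equal number (circle 1, square 2, triangle 3) and dashes with bars for mean and SD of 3 arrays. Each axis spans 4.8 log2 units. The 4 alpha GST panels run up to the right, the UGT3A panels run down, and in both SULT2A panels number 2 lies far above numbers 1 and 3 in both fractions.

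In several members the range over replicate numbers was larger than the fraction difference. The range of the number means exceeded the size of the fraction difference in 29 of the 48 members (60.4%), beside 71.4% of all genes. The range spans 3 means and the difference only 2, so the range tends to be larger even without a number effect. It did so in 13 of 16 SULT, 5 of 10 UGT and 11 of 22 GST genes. Sult2a3 read 3.99, 6.25 and 3.90 in GFP-negative and 3.92, 6.04 and 4.0 in GFP-positive arrays, so number 2 was higher in both fractions while the fractions differed by -0.06. The shared SULT2A probe sets ran alike: probe set 10550163 read 9.03, 11.69 and 8.27 against 9.27, 11.73 and 9.13, and number 2 exceeded the mean of numbers 1 and 3 by 2.79 there and by 2.30 in the other. Sult1e1 had number means of 2.08, 3.16 and 4.51, so number 3 was highest there. Gstp1 (11.54, 10.66 and 11.03) and Gstm3 (10.39, 9.32 and 9.64) were highest in number 1. Since 1 number alone bore the high Xist signal, a sex difference was not tested.

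**Figure D4:**
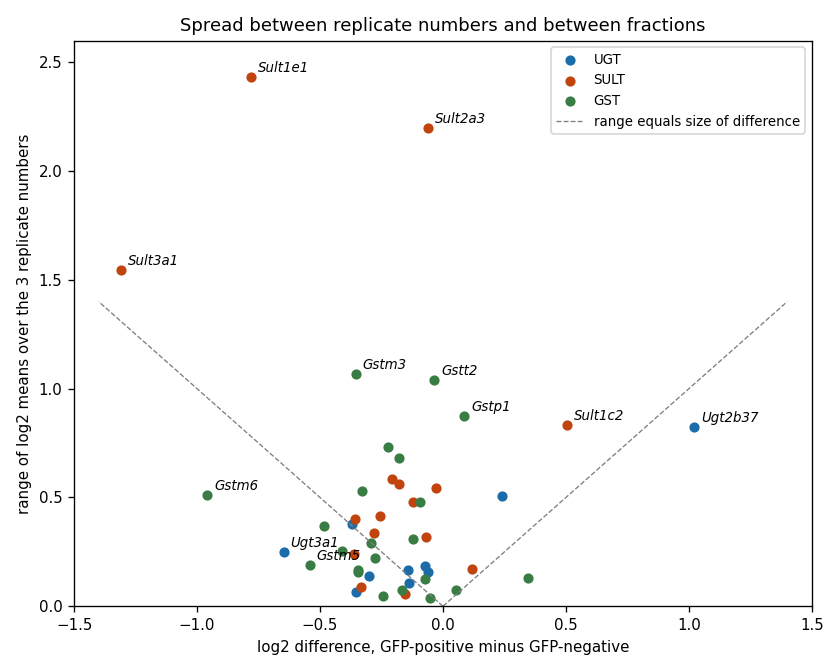
Range of the log2 means of replicate numbers 1, 2 and 3 (vertical) against the log2 difference between fractions (horizontal) for each member, coloured by family. Dashed lines mark where both are equal in size. Points above them, 29 of 48, had a range over the numbers larger than the fraction difference, as had 71.4% of all genes. Sult1e1 and Sult2a3 were highest.

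Genes around the families behaved as follows in the same limma fit. Of 19 cofactor supply genes measured, 0 were called and the median difference was -0.10. Slc35b1 differed most in this list (-0.61 ± 0.33, SE), but was at -0.16 without GFP-positive replicate 2. Other conjugating and hydrolysing enzymes (22 measured) had 0 calls and a median of -0.20, with the histamine methyltransferase Hnmt at 0.91 ± 0.32 (SE), or 0.49 without GFP-negative replicate 3. The glutathione relatives outside the symbol rule (13) and the NRF2 regulators and targets (22) had 0 calls and medians of -0.07 each, with Hagh at -0.48 and Maff at -0.39. Hagh was at -0.24 without GFP-positive replicate 2, and Maff at -0.07 without GFP-negative replicate 2. Among 16 conjugate transporters, Slco1b2, an uptake carrier of organic anions, fell by 0.72 with an adjusted p of 0.034, which was 0.062 with the replicate block. Leaving out a single array kept the Slco1b2 call only without GFP-positive replicate 2 (adjusted p 0.032). Slco1a1, a related carrier, had a difference of -0.85 ± 0.42 (SE) with an adjusted p of 0.63, and was called lower with the block (0.026). The 21 receptors and regulators had 0 calls and a median of -0.17, and Ahr, the aryl hydrocarbon receptor, was at -0.65 ± 0.14 (SE) with an adjusted p of 0.070.

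Zone and cell type markers were measured on the same arrays. All 16 pericentral hepatocyte genes measured lay below 0 with a median of -0.68, and 4 were called lower: Glul (-1.48), Oat (-1.24), Slc1a2 (-2.24) and Cyp7a1 (-0.98). Over all genes, 55.7% lay below 0 and 0.115% were called lower. The Cyp7a1 call was lost without GFP-positive replicate 1 (adjusted p 0.081), without GFP-positive replicate 2 (0.068) and without both arrays of number 2 (0.098). With the block 5 were called lower, beside 0.14% of all genes. The 16 periportal genes had a median of 0.08, by number 0.16, -0.34 and 0.54, and 0 calls, with Ctsc at 0.70 ± 0.49 (SE) and 0.24 without GFP-negative replicate 1. The 17 sex-linked or sex-biased genes had a median of -0.26 and 0 calls, and with the block 4 were called lower. Elovl3 differed most among them (-1.62 ± 0.55, SE, adjusted p 0.34, or 0.0062 with the block). Of the Kupffer markers 1 of 10, Clec4f, was called lower (-0.68, adjusted p 0.032), which was 0.077 with the block and between 0.070 and 0.15 with any single array left out. Their summed intensity was 228 to 282 in GFP-negative and 191 to 207 in GFP-positive arrays. Stellate markers summed to 434 to 482 and 331 to 375, erythroid markers to 342 to 376 and 197 to 297, and endothelial markers to 345 to 440 and 323 to 326. Cholangiocyte (225 to 260 and 221 to 225), neutrophil (118 to 185 and 97.5 to 119) and lymphoid sums (97.6 to 139 and 111 to 114) overlapped or nearly met. Only 1 of 10 Kupffer, 0 of 6 neutrophil, 1 of 6 lymphoid and 3 of 7 cholangiocyte markers lay above the median gene. Their sums may therefore be near background. Above it were 6 of 10 stellate, 6 of 10 endothelial and 3 of 4 erythroid markers. The part of zone, other cell types and number in the conjugation gene differences was not tested.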

How the data were processed

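RNA of 3 GFP-positive and 3 GFP-negative liver cell fractions was hybridised to whole-transcript Affymetrix arrays. Each probe set has a deposited intensity on every array, which the authors computed with RMA, a method that corrects background, aligns arrays and summarises probes, per the submitters' processing notes. Version and settings of RMA: not given in the sources used here. The intensities are linear, from 1.62 to 15836, with array medians of 24.3 to 26.7, so log2 was taken and nothing further was normalized.

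Of 35512 probe sets, 21789 had 1 gene symbol in the platform annotation, 1621 had several and 12102 had none. Symbols were updated by Entrez identifier for 21698 with a GRCm38 gene table, used for names and gene order. For each of 19938 genes the probe set of highest mean (6 arrays) was kept, so 49 probe sets gave 48 members.

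Differences were fitted with limma 3.58.1 in R 4.3.3 (lmFit, eBayes without trend, 4 residual and 5.44 prior degrees of freedom), with the fraction as predictor, and p-values were adjusted by Benjamini-Hochberg across all genes. This fit treats the arrays as independent, so its spread between these samples includes differences between replicate numbers. The p-values rest on that spread, which limma moderates toward that of all genes. Fits were tested on simulated data. Tables were made with pandas 2.3.3 and plots with matplotlib 3.10.9 under Python 3.11.15. Members and lists were chosen with earlier results of these data known. Members named with every array value were those called, those with an unadjusted p under 0.05, and in each family the 3 with the largest difference and the 3 with the highest mean. Ugt2a3 is also given since its groups did not overlap, and Sult2a3, Gstm3, Gstp1 and Gstp3 were chosen after their values were seen. From each list outside the cell type markers and the proliferation check, called genes or else the one with the largest difference were named. Marker lists are given as sums, with the 1 gene called. Slco1a1 was chosen after its values were seen.

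Both fractions came from 3 mice, and replicate number was used as a block in an alternative. Deviations of equal-numbered arrays from their group means correlated at 0.20, 0.06 and -0.05. In number 2 both arrays carried high Xist and low Eif2s3y. Other alternatives were quantile normalization, centring on array medians, leaving out genes of low mean (13292 were kept), averaging probe sets, an intensity trend, leaving out each array, and leaving out number 2. For the shared probe sets the alternatives were chosen after seeing the data.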

Additional observations from a re-analysis of the deposited data

How the results depend on the processing

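Across 13 alternative settings the 19 members named by rule gave 246 comparisons: 240 kept direction and side of the threshold, 3 came to pass it and 3 reversed. The members called lower numbered 0 in the fit of all arrays and 1 with the replicate block (Sult3a1), which changed no other member's call. With that block the limma adjusted p was 0.052 for Gstm6 and 0.060 for Ugt2b37. Leaving out each array gave 0 to 1 lower (1, Gstm6, without GFP-negative replicate 3) and 0 to 1 higher (1, Ugt2b37, without GFP-positive replicate 1). The SULT median then ran from -0.32 to -0.11, with -0.32 without GFP-positive replicate 2. The UGT median ran from -0.23 (without GFP-positive replicate 2) to -0.10, and was -0.25 without number 2. The GST median ran from -0.41 (without GFP-negative replicate 3) to -0.16, and was -0.14 without number 2. Leaving out an array moved the difference of 10 of the 19 named members by over 1.5 times. Such fits leave the replicate numbers unbalanced between fractions. Sult1a1 ran from -0.34 to 0.0032 and Gstm1 from -0.24 to 0.090. Gstm1 was also at 0.024 without both arrays of number 2. Over all genes, 23 were called lower, but 38 after quantile normalization, 13 after centring, 9 without number 2 and 6 to 29 with an array left out. Quantile normalization moved the median of all genes from -0.03 to -0.08. The number of arrays, 3 per fraction, limits the precision, and members under the array medians, mostly SULT genes, may be near background, which was not measured here.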
